A study of Mus musculus with 24 samples.

Results

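The transcripts described here are 10 genes of autophagy, chosen by name from the array's platform annotation: Ulk1, Becn1, Atg5, Atg7, Map1lc3a, Map1lc3b, Gabarapl1, Gabarapl2, Sqstm1 and Tfeb. All 10 were found among the 19938 genes that the annotation names with 1 symbol, each read by 1 probe set, the one with the highest mean where a gene had several. Map1lc3a was included because its values were noted as low in female blastocysts of obese mothers, so its level in that group is described and not tested. The other 9 were listed with it as genes of the same process.

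Blastocysts of outbred NMRI mice were collected on day 3.5 after mating, sexed, and pooled as the lysates of 3 embryos of 1 sex from 1 mother, with 1 pool per Affymetrix mouse gene array. Obese parents had received a modified D12492 high-fat diet, and lean parents its control diet, over 9 weeks. Feeding began at 3 weeks of age and mating took place at 12 weeks, when all animals received the control diet. The 24 arrays fell into 6 groups of 4: females and males with an obese mother and a lean father, females and males with a lean mother and an obese father, and females and males with 2 lean parents. The study compared the transcriptomes of these embryos by which parent was obese and by embryo sex. The labels do not say which animal each pool came from, so pools could share a mother, and p-values measure only the spread between pools.

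Autophagy is the route by which a cell encloses part of its own cytoplasm in a double membrane, the autophagosome, and delivers it to the lysosome for breakdown. Ulk1 starts the process when nutrients are scarce, Becn1 belongs to the lipid kinase complex that marks the membrane, and Atg7 and Atg5 attach proteins of the Atg8 family (Map1lc3a, Map1lc3b, Gabarapl1, Gabarapl2 and Gabarap) to it. Sqstm1 ties cargo to these proteins, and Tfeb switches on many genes of autophagy and the lysosome. In the mouse, autophagy is induced soon after fertilisation, and embryos that lack both maternal and embryonic Atg5 are known to arrest before the blastocyst stage.

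All levels are log2 intensities as deposited, and the number of arrays limits their precision. A gene was tested if 4 or more of the 24 arrays were above the whole table's median, 2.56, which kept 13311 genes and all 10 members. Atg5 exceeded that median on 10 arrays and Gabarapl1 on 9, so both were dim, while Ulk1, Map1lc3b, Gabarapl2 and Sqstm1 exceeded it on all 24. Array means were nearly equal, but the standard deviation of all values on an array, called its signal spread here, ran from 1.27 to 1.81. Obese-father female array 22 (1.81) and obese-father male array 12 (1.72) were the widest. All listed markers of trophectoderm (7 of 7) and inner cell mass (6 of 6) passed the brightness filter, and so did 5 of 5 of sperm, 6 of 8 on the array of cumulus and granulosa cells, 2 of 4 of oviduct and uterine epithelium and 0 of 4 of blood. Passing the filter therefore does not by itself show that a cell type was present.

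Map1lc3a encodes LC3A, an Atg8-family protein that is attached to the autophagosome membrane. In obese-mother females its values were 2.53, 2.68, 2.67 and 2.14, against 3.02, 3.13, 3.40 and 3.43 in lean-parent females. The groups did not overlap, and obese-mother female array 20 was the lowest of the series. The means were 2.50 ± 0.25 and 3.25 ± 0.20 (SD, n = 4 each), a difference of -0.74. Of the 4 obese-mother females 2 lay below the table's median of 2.56, the only arrays of the series where this gene did, so the size of the difference is uncertain at its low end. This is the pattern for which the gene was picked, so no test is given. Of all tested genes, 0.639% were lower on every obese-mother female array than on every lean-parent female array. Over the whole series, 19 of the other 20 arrays exceeded all 4 obese-mother female arrays, and the exception was an obese-father female array at 2.64.

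In obese-mother males Map1lc3a measured 3.11, 2.82, 3.30 and 3.08, against 2.69, 2.99, 3.20 and 3.04 in lean-parent males. These groups overlapped, with a log2 fold change of 0.10 (SE 0.19, adjusted p = 1, limma with Benjamini-Hochberg adjustment over all tested genes, as for every adjusted p below). With an obese mother, all 4 male arrays were above all 4 female arrays, by 0.58 on average, and 0.766% of all tested genes were higher on every male array. The obese-mother difference in males minus that in females was 0.84, again described and not tested.

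With an obese father, female blastocysts had Map1lc3a values of 3.29, 3.16, 2.64 and 2.81, against the lean-parent values above, a log2 fold change of -0.27 (SE 0.19, 95% interval -0.66 to 0.12, adjusted p = 1). Obese-father males had 3.51, 2.86, 2.80 and 3.47, against 2.69 to 3.20 in lean-parent males, a log2 fold change of 0.18 (SE 0.19, adjusted p = 0.6). Both pairs of groups overlapped. Ordered by mean, the groups ran from obese-mother females (2.50) through obese-father females (2.98), lean-parent males (2.98), obese-mother males (3.08) and obese-father males (3.16) to lean-parent females (3.25). Neighbours among the last 5 differed by less than the pooled within-group SD of 0.27.

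**Figure D1:**
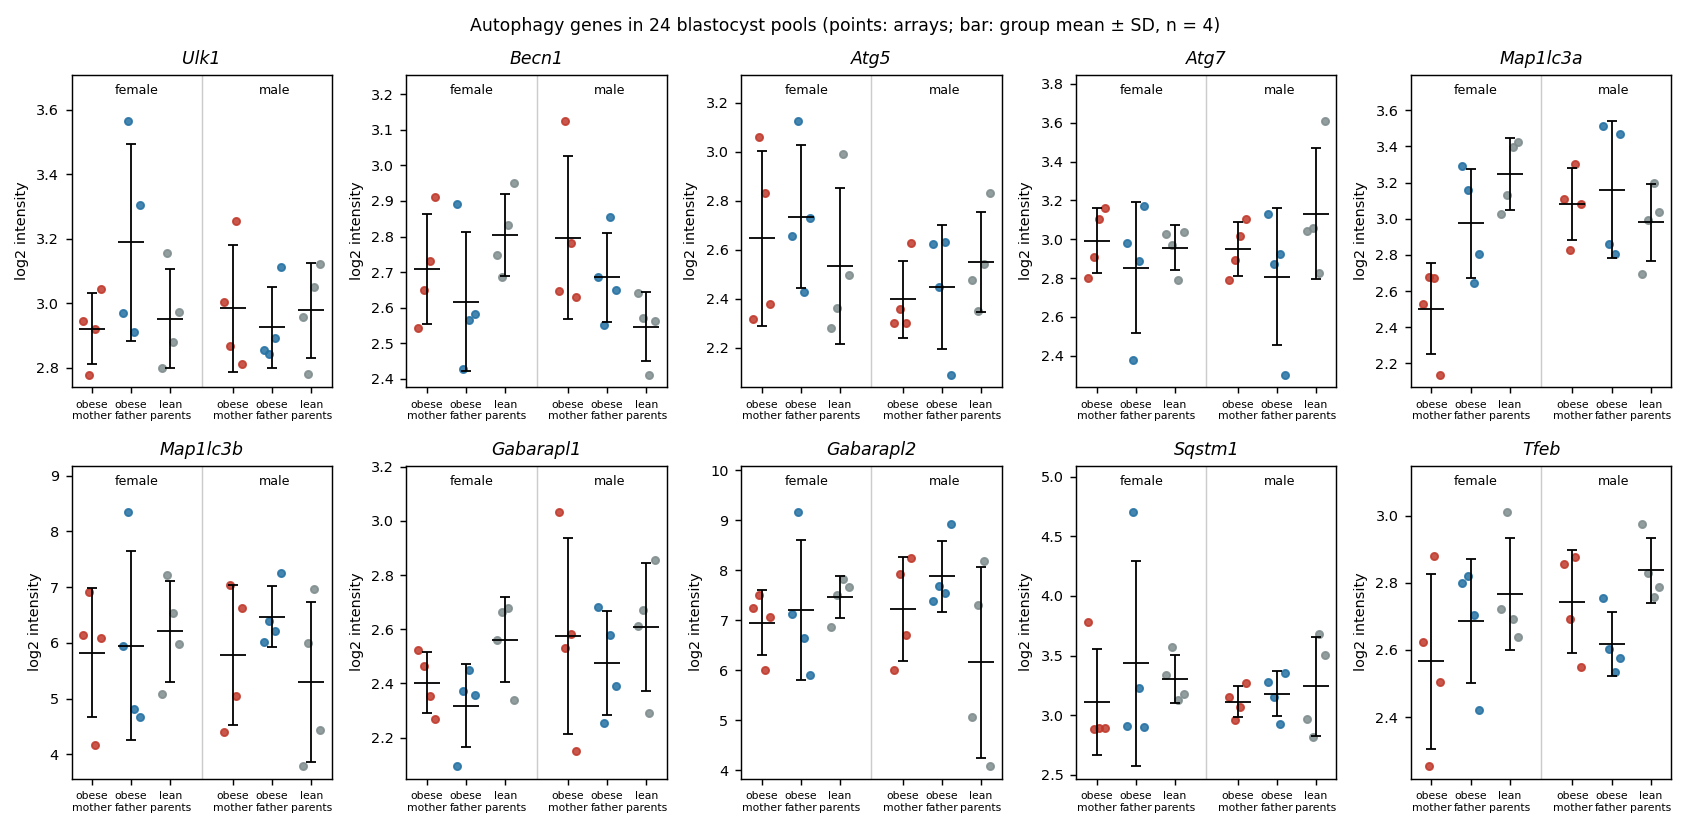
Log2 intensity (vertical axis, a separate scale for each gene) of the 10 autophagy genes on each of the 24 arrays, by embryo sex and parents. Points are arrays and bars are group means ± SD (n = 4). Map1lc3a in obese-mother females lies between 2.14 and 2.68, below all 4 lean-parent females, and the other 9 genes overlap in that comparison.

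The genes whose values followed Map1lc3a most closely over the 24 arrays, by Pearson's r, were Pmepa1 (0.70), Eif4a3 (0.70), Hspbap1 (0.68), Tmem11 (0.66) and Sphk2 (0.61). All arrays enter each value and share their signal spread, so r is descriptive. After the spread was regressed out of every gene, the first 5 were Adck5 (0.67), Btnl5-ps (0.67), Zbtb38 (0.67), 9130213A22Rik (0.65) and Pmepa1 (0.65). Pmepa1 alone was in both sets of 5, with 2.75 to 3.52 in obese-mother females and 2.95 to 4.74 on the other 20 arrays. These rankings use the low obese-mother female values for which Map1lc3a was picked. Within groups (each array minus its group mean), r was 0.57 for Pmepa1, 0.65 for Eif4a3, 0.46 for Hspbap1, 0.68 for Tmem11 and 0.42 for Sphk2. It was 0.27 for Adck5, 0.31 for Btnl5-ps, 0.11 for Zbtb38 and 0.24 for 9130213A22Rik. Both sets were ranked on values that hold these same within-group deviations. The choice can therefore raise the within-group r, which is no separate check. Among the other autophagy members, the highest r with Map1lc3a was 0.31 on the values as deposited (Gabarapl2), 0.40 with the spread removed (Tfeb, while Gabarapl2 was at -0.07) and 0.30 for deviations from the group means (Atg5).

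Ulk1, the kinase that starts autophagy, had its smallest differences in blastocysts of obese mothers. Females of obese mothers measured 2.94, 2.78, 2.92 and 3.04, against 2.80, 3.16, 2.88 and 2.97 in lean-parent females, a log2 fold change of -0.03 (SE 0.14, adjusted p = 0.999). In obese-father females 2 arrays were high (3.57 and 3.31) and 2 were at 2.97 and 2.91, which gave 0.24 (SE 0.14, adjusted p = 1). The higher of these was array 22, the one with the widest signal spread. In males the differences were 0.01 for obese mothers and -0.05 for obese fathers, each with an SE of 0.14.

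Becn1, the scaffold of the lipid kinase complex, had its highest value of the series, 3.13, in an obese-mother male. The obese-mother males measured 2.65, 3.13, 2.78 and 2.63, against 2.64, 2.57, 2.41 and 2.56 in lean-parent males. The log2 fold change was 0.25 (SE 0.13, 95% interval -0.01 to 0.51, unadjusted p = 0.0614, adjusted p = 1), and the lowest obese-mother male lay below the highest lean-parent male. Without obese-mother male array 6, the highest, the difference was 0.14. Obese-father males averaged 2.69 ± 0.12 (SD, n = 4), 0.14 above lean-parent males (adjusted p = 0.555). In females both differences were negative, at -0.10 for obese mothers and -0.19 for obese fathers (SE 0.13 each), and neither passed.

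Atg5 and Atg7 act in the enzyme cascade that attaches Atg8-family proteins to membrane, Atg7 as the activating enzyme and Atg5 as part of the ligase. Atg7 in obese-father males measured 3.13, 2.87, 2.92 and 2.30, against 3.04, 3.06, 2.82 and 3.61 in lean-parent males. The log2 fold change was -0.32 (SE 0.18, unadjusted p = 0.0929, adjusted p = 0.374). Its 2 lowest values of the series, 2.30 and 2.38, were on arrays 12 and 22, the 2 widest, and over the 24 arrays Atg7 had r = -0.76 and Spearman rho = -0.60 with signal spread. Without those 2 arrays r was -0.50. Over all tested genes the median r with signal spread on the 24 arrays was -0.42, and the lower quartile was -0.67. For the other parent comparisons Atg7 differed by 0.04 (obese-mother females), -0.18 (obese-mother males) and -0.10 (obese-father females), with an SE of 0.18 each.

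Atg5, which was near the table's median, ranged from 2.30 to 2.63 in obese-mother males and from 2.35 to 2.83 in lean-parent males, a log2 fold change of -0.15 (SE 0.19, adjusted p = 1). In females the differences were 0.11 for obese mothers and 0.20 for obese fathers, and in obese-father males -0.10, all with an SE of 0.19. Lean-parent females alone spanned 2.28 to 2.99, more than any of these differences.

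Map1lc3b and Gabarapl2 were the members that varied most from array to array, and they varied together. Map1lc3b encodes LC3B, the protein used most often to follow autophagosomes, and Gabarapl2 encodes a relative that also works in membrane traffic at the Golgi. The RefSeq promoter windows of both genes (GRCm38.p6, 300 bases spanning the annotated start, plus strand) are shown because these members moved together. Capitals mark CCGCCC or its reverse complement GGGCGG, the core of the GC box.

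Map1lc3b, chr8:121590188-121590487: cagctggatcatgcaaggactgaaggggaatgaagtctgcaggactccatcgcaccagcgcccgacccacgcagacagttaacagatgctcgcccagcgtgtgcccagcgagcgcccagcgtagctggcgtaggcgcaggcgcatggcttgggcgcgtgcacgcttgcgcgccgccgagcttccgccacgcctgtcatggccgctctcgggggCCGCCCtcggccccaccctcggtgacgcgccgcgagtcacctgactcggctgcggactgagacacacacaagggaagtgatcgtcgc

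Gabarapl2, chr8:111940453-111940752: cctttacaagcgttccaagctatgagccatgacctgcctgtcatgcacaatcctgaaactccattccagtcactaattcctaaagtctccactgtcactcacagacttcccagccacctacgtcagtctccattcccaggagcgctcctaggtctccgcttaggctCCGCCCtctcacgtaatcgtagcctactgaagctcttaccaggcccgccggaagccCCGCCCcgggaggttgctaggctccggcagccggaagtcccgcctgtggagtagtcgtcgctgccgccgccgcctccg

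Of the 10 members, 8 had windows in the promoter table, 10 windows in all. The GC box letters, searched on both strands, were in 9 of these 10 windows, from 7 of the 8 members, and in 35.7% of all 32851 windows. CACGTG, the core of the element that Tfeb binds, reads the same on both strands and does not overlap the GC box letters. It was in 2 of the 10 member windows (Atg5 and Atg7) and in 7.15% of all windows. A match is a description of the letters only, and a link between the windows and the measured levels was not tested.

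In obese-father males Gabarapl2 measured 7.38, 7.69, 7.54 and 8.93, against 5.06, 7.30, 8.18 and 4.09 in lean-parent males. The obese-father arrays were close together except array 12, and lean-parent males held both a high array and the lowest value of the series, so the groups overlapped. The means were 7.88 ± 0.71 and 6.16 ± 1.90 (SD, n = 4 each), a log2 fold change of 1.72 (SE 0.74, 95% interval 0.19 to 3.26). It was the 1 tested member below the unadjusted 0.05 level in that comparison and did not pass the adjusted one (limma, unadjusted p = 0.0292, adjusted p = 0.318). Among all tested genes 4.3% stood higher at that unadjusted level. When each array was left out in turn, the difference ran from 1.04 (without lean-parent male array 4) to 2.40 (without lean-parent male array 3), and without obese-father male array 12 it was 1.38.

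Map1lc3b in obese-father males measured 6.01, 6.39, 6.21 and 7.25, against 3.79, 5.996, 6.96 and 4.44 in lean-parent males. Here too the lean-parent males were split, with arrays 1 and 4 low for both genes. The log2 fold change was 1.17 (SE 0.79, 95% interval -0.48 to 2.82, adjusted p = 0.442). It was 0.67 without lean-parent male array 1 and 1.72 without lean-parent male array 3.

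Signal spread moved with both genes. Over the 24 arrays r with the spread was 0.92 for Map1lc3b (Spearman rho = 0.95) and 0.89 for Gabarapl2 (rho = 0.94), and leaving out the 2 arrays with the most extreme spread gave 0.93 and 0.90. Bright genes follow the spread in part by construction, because they enter it, and the 342 tested genes of like brightness had a median r of 0.84. Obese-father males had a mean spread of 1.56 ± 0.11, against 1.38 ± 0.12 in lean-parent males (n = 4 each, exact two-sided permutation p = 0.114, where 0.0286 is the smallest possible). With the spread as a covariate, the obese-father male difference was 0.32 for Gabarapl2 and -0.40 for Map1lc3b. The part of the spread in the unadjusted differences was not tested beyond these fits.

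**Figure D2:**
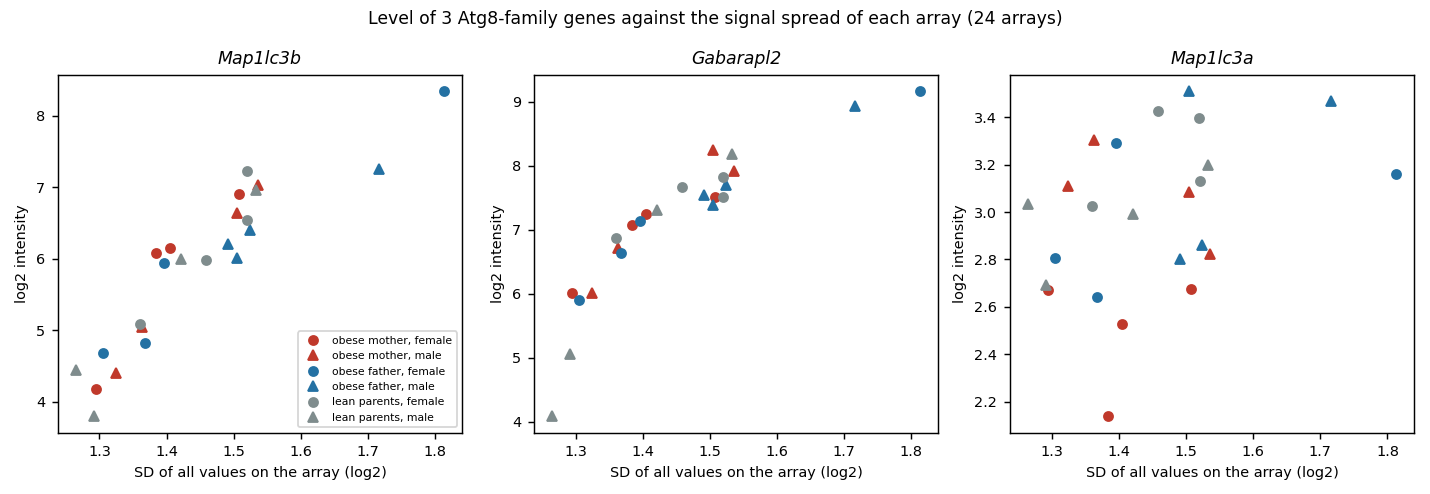
Log2 intensity of Map1lc3b, Gabarapl2 and Map1lc3a (vertical axes) against the standard deviation of all log2 values on the same array (horizontal axis), with 1 point per array, coloured by parents and shaped by sex. Map1lc3b and Gabarapl2 climb with the spread (r = 0.92 and 0.89), and Map1lc3a does so weakly (r = 0.38), with the obese-mother females at the bottom of its panel.

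The 2 genes correlated with each other at r = 0.90 over the 24 arrays, and at 0.44 once the spread had been regressed out of both. The other 44 pairs of members had r from -0.73 (Atg7 and Gabarapl2) to 0.58 (Ulk1 and Sqstm1), with a median of 0.03. With the spread removed, those pairs ran from -0.575 (Becn1 and Sqstm1) to 0.55 (Ulk1 and Sqstm1), a range that holds the 0.44. Ulk1 and Sqstm1 both had their highest value of the series on obese-father female array 22 (3.57 and 4.70). Their r without that array was not computed.

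Each of these genes had a second probe set. The 2 sets of Map1lc3b correlated at 0.98 and those of Gabarapl2 at 0.85 over the 24 arrays. Probe sets on this array are numbered along the chromosomes: 96.8% of 21698 named sets lay on the chromosome of most of the 10 named sets numbered nearest to them. Both genes lie on chromosome 8. The brighter Gabarapl2 set, used above, was numbered among sets of chromosome 5 (10 of 10 neighbours), and the second set among those of chromosome 8 (10 of 10). For Map1lc3b the set used was numbered within chromosome 8 and the second within chromosome 14. Whether the sets on other chromosomes read a near-identical copy was not tested, so the Gabarapl2 values above are uncertain in this respect. The second Gabarapl2 set measured 7.09, 6.71, 6.34 and 7.80 in obese-father males, against 4.56, 5.13, 7.21 and 3.81 in lean-parent males. Its log2 fold change was 1.81 (SE 0.77, unadjusted p = 0.0284, adjusted p = 0.317), near that of the set used. In obese-father females the second set differed by -0.94 and the set used by -0.26, and neither passed.

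In the other comparisons with lean parents both genes had wide intervals. Gabarapl2 in obese-mother males measured 6.01, 7.92, 6.71 and 8.25, with a log2 fold change of 1.06 against lean-parent males (SE 0.74, adjusted p = 1). Without lean-parent male array 4 this was 0.37, and without lean-parent male array 3 it was 1.74. Its differences in females were -0.51 for obese mothers (-1.04 in the second set) and -0.26 for obese fathers. Map1lc3b differed by -0.38 in obese-mother females, 0.48 in obese-mother males and -0.26 in obese-father females, each with an SE of 0.79. Within obese-father females Map1lc3b ran from 4.68 to 8.35, the top value being on array 22.

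Gabarapl1, a dim member of the same family, averaged 2.40 ± 0.11 in obese-mother females and 2.32 ± 0.15 in obese-father females, against 2.56 ± 0.16 in lean-parent females (SD, n = 4 each). The differences were -0.16 and -0.24 (SE 0.16 each, adjusted p = 0.999 and 1). All 4 obese-father females (2.10, 2.37, 2.45 and 2.36) lay below 3 of the 4 lean-parent females (2.56, 2.67 and 2.68), and 3 of them lay above the fourth, at 2.34. In males the differences were -0.03 for obese mothers and -0.13 for obese fathers. Gabarap, the fifth Atg8-family gene on the array, differed by 0.10, -0.17, 0.07 and 0.24 in obese-mother females, obese-mother males, obese-father females and obese-father males, with an SE of 0.33 each. In obese-mother females the 4 family members among the 10 genes had negative differences and Gabarap did not, although Map1lc3b and Gabarapl2 changed sign with the signal spread as a covariate (0.20 and 0.01). There, only the difference of Map1lc3a, the one it was chosen for, separated the arrays.

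Sqstm1 encodes p62, the receptor that carries ubiquitin-tagged cargo into autophagosomes and is itself broken down there. Obese-mother females measured 3.78, 2.89, 2.90 and 2.89, against 3.34, 3.57, 3.13 and 3.18 in lean-parent females. A single array stood above the lean-parent range and the other 3 below it, so the mean difference of -0.19 (SE 0.30, adjusted p = 0.999) describes neither. Obese-father females held the highest value of the series, 4.70 on array 22, beside 2.91, 3.23 and 2.90, and their difference of 0.13 became -0.29 without that array. In males Sqstm1 differed by -0.13 for obese mothers and -0.06 for obese fathers (SE 0.30 each).

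Tfeb, the transcription factor of the autophagy and lysosome programme, measured 2.75, 2.60, 2.53 and 2.58 in obese-father males, against 2.97, 2.83, 2.76 and 2.79 in lean-parent males. Every obese-father male was lower, the closest arrays standing at 2.75 and 2.76. The log2 fold change was -0.22 (SE 0.13, unadjusted p = 0.11, adjusted p = 0.39). Tfeb was the 1 member of 10 whose groups did not overlap there. Of all tested genes 6.63% were lower on every array, and 8.54% had no overlap when both directions are counted. The median difference of all genes was -0.11. In obese-mother females Tfeb differed by -0.20 (2.62, 2.25, 2.88 and 2.50, against 2.64 to 3.01 in lean-parent females, SE 0.13, adjusted p = 0.999). The remaining differences were -0.09 in obese-mother males and -0.08 in obese-father females.

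Across the 4 comparisons with lean parents, no tested member passed an adjusted p of 0.05 in limma. The share of all tested genes that passed was 0% in obese-mother females, 0% in obese-mother males, 0% in obese-father females and 0.00751% in obese-father males. At an unadjusted p under 0.05, 0 of the 9 members tested in obese-mother females were found, beside 2.19% of all genes. The counts were 0 of 10 in obese-mother males beside 1.7%, 0 of 10 in obese-father females beside 2.84%, and 1 of 10 in obese-father males beside 14.7%. Median differences of the members were -0.16 in obese-mother females without Map1lc3a, -0.01 in obese-mother males, -0.14 in obese-father females and -0.06 in obese-father males. Over all tested genes they were 0.05, -0.01, 0.02 and -0.11. All comparisons within a sex share the same 4 lean-parent arrays.

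**Figure D3:**
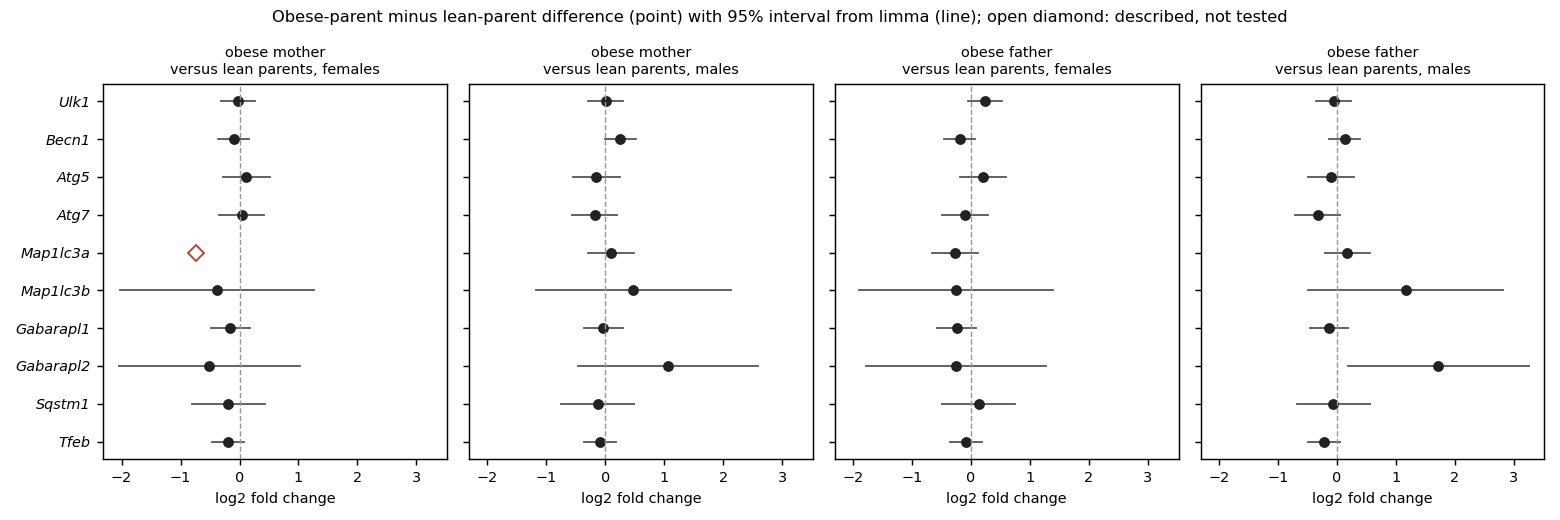
Log2 fold change (horizontal axis) of the 10 genes in obese-mother and obese-father blastocysts against lean parents, by sex. Points are limma estimates with 95% intervals, and the open diamond is Map1lc3a in obese-mother females (-0.74), described without a test. Gabarapl2 in obese-father males (1.72) is the 1 interval that excludes 0, and Map1lc3b and Gabarapl2 have the widest intervals.

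Between obese mothers and obese fathers, Map1lc3a averaged 2.50 in obese-mother females and 2.98 in obese-father females, a difference of -0.47 given without a test, and the groups overlapped. No tested member passed in females (0% of all genes) or in males (0.00751%), and none had an unadjusted p under 0.05, beside 3.25% and 8.35% of all genes. Ulk1 in females came nearest, at -0.27 (SE 0.14, unadjusted p = 0.0706, adjusted p = 0.975).

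Male and female blastocysts were compared within each kind of parents. With lean parents Becn1 was the 1 member whose groups did not overlap: males measured 2.64, 2.57, 2.41 and 2.56, against 2.75, 2.69, 2.83 and 2.95 in females. The difference was -0.26 (SE 0.13, limma, unadjusted p = 0.0547, adjusted p = 0.992). Of all tested genes 0.481% were lower on every male array, and 2.19% had no overlap when both directions are counted. Gabarapl2 with lean parents averaged 6.16 in males and 7.47 in females, a difference of -1.31 (SE 0.74, adjusted p = 0.992). No tested member passed with lean parents (0% of all genes), obese mothers (0%) or obese fathers (0.00751%). The 2 tests of whether the effect of an obese parent differed between the sexes also gave 0 tested members, with 0% of all genes for each parent. Gabarapl2 had the widest such difference for an obese father, 1.98 (males minus females, SE 1.04, unadjusted p = 0.0713, adjusted p = 0.654). Becn1 had 0.35 for an obese mother (SE 0.18, unadjusted p = 0.0669, adjusted p = 1) and 0.33 for an obese father (SE 0.18, adjusted p = 0.654). Both Becn1 values contain the same lean-parent difference of -0.26. Males minus females was 0.09 with obese mothers and 0.07 with obese fathers.

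Other genes of the pathway came from a list of 115 genes in 10 roles, of which 110 were on the array and 91 were tested. For the 8 roles of the machinery itself, 44 tested genes remained once the 10 members had been set aside, and 0 of them passed in any of the 4 comparisons with lean parents. In obese-mother females 22 were above 0 and 22 below (median 0.00, against 0.05 for all genes), and 1 was higher at an unadjusted p under 0.05, beside 1.65% of all genes. In obese-mother males 16 were above and 28 below (median -0.09, against -0.01), and 0 were past that level. In obese-father females 26 were above and 18 below (median 0.04, against 0.02), and 1 was higher at that level, beside 1.95% of all genes. In obese-father males 16 were above and 28 below (median -0.03, against -0.11), and 1 was higher and 3 were lower at that level, beside 4.3% and 10.4% of all genes. The 7 tested conjugation enzymes, Atg5 and Atg7 included, were all below 0 in obese-mother males (median -0.16) and in obese-father males (median -0.23), and no enzyme passed. Of all 13311 tested genes 7169 and 8882 were below 0 in these comparisons. In obese-mother females 3 of the 7 enzymes were below 0 and in obese-father females 4. In obese-father males the 5 tested transcription factors were below 0 too, but 3 were after centring or quantile normalization and 2 with the spread covariate. Both roles were singled out after their values were seen. All 7 enzymes stayed below 0 in both comparisons after centring, quantile normalization or the spread covariate, a check chosen after the data were seen, with medians from -0.16 to -0.13 in obese-mother males and from -0.18 to -0.11 in obese-father males. Over all tested genes the main medians were -0.01 and -0.11. After centring, quantile normalization or the spread covariate the medians of all tested genes were -0.001, -0.018 and 0.007 in obese-mother males. In obese-father males they were -0.03, -0.078 and -0.015. Both comparisons use the same lean-parent males.

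**Figure D4:**
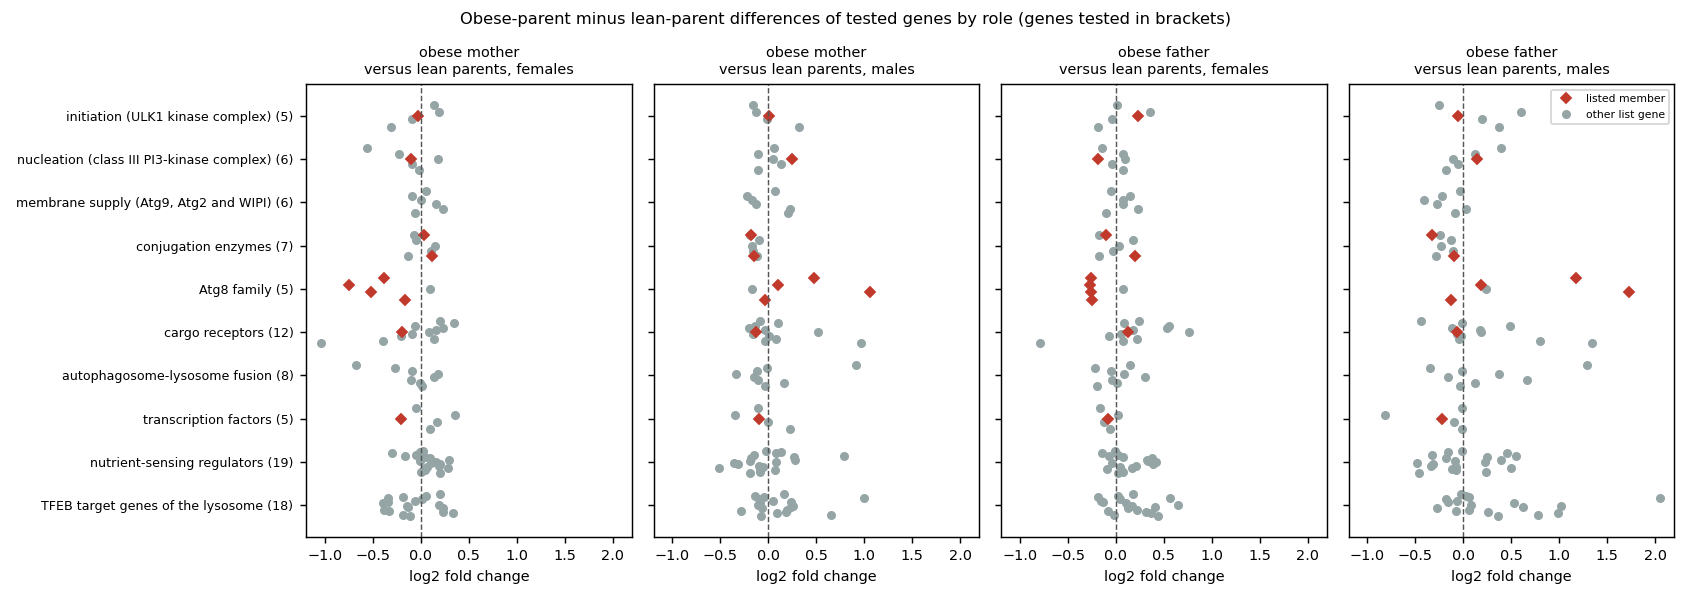
Log2 fold change (horizontal axis) against lean parents of the 91 tested autophagy genes, in rows by role with the number tested in brackets. Red diamonds are the 10 listed genes and grey points the other genes of each role. The conjugation enzymes lie left of 0 in both male panels, and the Atg8 family spreads wider in obese-father males than in the other panels, where Gabarapl2 reaches 1.72.

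In obese-mother females the listed genes with the smallest unadjusted limma p were Tex264, a receptor for autophagy of the endoplasmic reticulum (0.35, unadjusted p = 0.0424, adjusted p = 0.999), the lysosomal calcium channel Mcoln1 (-0.34) and Atg101 of the Ulk1 complex (-0.31). All shared that adjusted p. In obese-mother males they were Rragd, a Rag GTPase that passes amino acid signals to mTORC1 (0.79), Atg101 (0.32) and Prkaa2, a catalytic subunit of AMPK (-0.35), each with an adjusted p of 1. In obese-father females the same limma ranking gave Rptor, the mTORC1 subunit Raptor (0.38, unadjusted p = 0.0211), the ferritin receptor Ncoa4 (0.53, unadjusted p = 0.0289) and the AMPK subunit Prkag1 (0.33), all at adjusted p = 1. Lean-parent female means of Tex264 (2.45), Rptor (2.47) and Prkag1 (2.556) lay below the table's median of 2.56. Both Prkaa2 means (2.13 in obese-mother males, 2.48 in lean-parent males) did too. The sizes of these differences are uncertain at the low end.

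In obese-father males the smallest unadjusted p belonged to Mitf, a transcription factor of the same family as Tfeb. It averaged 2.40 ± 0.29 against 3.22 ± 0.33 in lean-parent males (SD, n = 4 each), lower on every array, as were 6.63% of all tested genes. Its log2 fold change was -0.81 (SE 0.22, limma, unadjusted p = 0.00134, adjusted p = 0.316). Psap, the precursor of the lysosomal saposins, averaged 6.86 ± 0.72 against 4.81 ± 1.23 (log2 fold change 2.04, SE 0.59). Atp6v1h, a subunit of the proton pump that acidifies lysosomes, averaged 3.23 ± 0.31 against 2.24 ± 0.35 (log2 fold change 0.98, SE 0.32). Both were higher on every array, as were 1.91% of all tested genes, and each had an adjusted p of 0.316. These genes were picked for the smallest unadjusted p in a comparison where 14.7% of all genes had one under 0.05. The lower means of Mitf (2.40, obese-father males) and Atp6v1h (2.24, lean-parent males) lay below the table's median of 2.56. The sizes of these differences are therefore uncertain at the low end. Marker levels overlapped between these groups. Over the array means, trophectoderm markers lay at 4.58 to 5.30 in obese-father males, against 4.29 to 4.86 in lean-parent males, and inner cell mass markers at 4.03 to 4.52, against 3.43 to 4.10. Cumulus and granulosa markers, 8 of 9 on the array, lay at 2.58 to 2.89 in obese-father males, against 2.81 to 3.15 in lean-parent males. Their part in the autophagy values was not tested, and in pooled embryos fewer cells of a type and less RNA per cell cannot be told apart.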

How the data were processed

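Gene expression of 24 blastocyst pools was read from a table of log2 intensities per probe set that the authors deposited. Per the submitters' processing notes, the authors made these log2 values with RMA and affy. No tool version, probe set definition or genome build was given in the sources used here. Of 35556 probe sets, 21789 had 1 symbol in GEO's platform annotation, and 0 symbols changed through RefSeq (GRCm38.p6). Groups came from the labels. A model with 6 group means was fitted over all 24 arrays with limma 3.58.1 (lmFit, eBayes) in R 4.3.3, and p-values were Benjamini-Hochberg adjusted over 13311 genes per comparison, with a threshold of 0.05. The procedure was tested on simulated data. Alternatives changed the dim-gene filter (none, or 12 of 24 arrays), probe set choice, prior, array weights, scaling, signal spread as a covariate, the groups in the fit, a threshold of 0.1, and each array in turn.

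The members, lists and named-gene rules were chosen with earlier results of these data known. Named genes are the 10 members, Gabarap, up to 3 list genes per parent comparison with the smallest unadjusted p, and the 5 genes most like Map1lc3a before and after removal of signal spread. Sequences are from RefSeq.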

Additional observations from a re-analysis of the deposited data

Results flagged for a closer look

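Of 60 sets of 4 values (10 genes in 6 groups), 2 held an array far from the other 3, where chance gives about 1 in 20. Sqstm1 in obese-mother female array 17 stood at 3.78, against 2.89 to 2.90 on the other 3 arrays of the group, a gap of 0.991 of the group's range. Atg5 in obese-mother male array 8 stood at 2.63, against 2.30 to 2.36 on the other 3, a gap of 0.835 of the range (critical value 0.829).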

How the results depend on the processing

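The number of tested members that passed was 0 in all 214 alternative fits of the 11 comparisons, with the smallest adjusted p of a member between 0.106 and 1. The described Map1lc3a difference in obese-mother females was -0.817 to -0.621 when 1 array was left out; its sign was fixed by the choice of the gene. Of 352 differences under other settings, 339 kept their sign and 13 turned. The dim-gene filter, the prior and the groups in the fit leave a difference unchanged by construction. Probe set choice can change only genes with a second set, so the 339 include many values that could not turn. With signal spread as a covariate, Ulk1 (9.14e-05), Atg7 (-0.0609), Map1lc3b (0.203) and Gabarapl2 (0.0079) turned in obese-mother females, Ulk1 (-0.0183) in obese-mother males and Map1lc3b (-0.401) in obese-father males. With centred arrays Atg7 turned in obese-mother females (-0.00942), and Ulk1 (0.0306) and Sqstm1 (0.0211) in obese-father males. Quantile normalization turned Sqstm1 in obese-father females (-0.00781) and Ulk1 in obese-father males (0.00476), and array weights turned Atg7 (0.0147) and Sqstm1 (-0.224) in obese-father females. The cause was not tested. When 1 array was left out, 15 of 40 differences turned in some fit. In obese-mother females the ranges were -0.0818 to 0.0379 for Ulk1, -0.0237 to 0.266 for Atg5, -0.0186 to 0.102 for Atg7 and -0.754 to 0.172 for Map1lc3b. In obese-mother males they were -0.0836 to 0.0642 for Ulk1, -0.022 to 1.03 for Map1lc3b, -0.186 to 0.108 for Gabarapl1 and -0.271 to 0.0169 for Sqstm1. In obese-father females they were -0.208 to 0.0559 for Atg7, -1.06 to 0.164 for Map1lc3b, -0.908 to 0.179 for Gabarapl2, -0.292 to 0.308 for Sqstm1 and -0.124 to 0.00962 for Tfeb. In obese-father males they were -0.167 to 0.0186 for Atg5 and -0.204 to 0.0842 for Sqstm1. No paired analysis was possible because the labels do not say which pools share a parent. With 4 pools a group and unknown parentage, small differences could not be resolved, and dim genes such as Atg5 and Gabarapl1 lie near the table's median.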
